A study of Saccharomyces cerevisiae with 24 samples.

Results

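The 10 genes of sodium, potassium and proton transport chosen here by systematic name were followed through a pooled competition of yeast plasmids: ENA1, ENA2 and ENA5, NHA1, NHX1, TRK1, TRK2, TOK1, KHA1 and PMA1. Of these 10 genes, 5 had a row in the table used here, which holds 4871 barcode rows for 4817 genes, and 4 of the 5 had reads. PMA1 held 37452 reads summed over the 24 samples, NHA1 8960, NHX1 3851 and KHA1 63326. TRK1 had a row with 0 reads in every sample, and ENA1, ENA2, ENA5, TRK2 and TOK1 were not analysed here.

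The plasmids came from the high-copy MoBY 2.0 library, in which each 2-micron plasmid bears 1 gene from S288C, flanked by its native sequence, and a barcode. The library was carried by 4 strains of Saccharomyces cerevisiae, namely BY4743, a laboratory diploid, BC187 from a vineyard, NCYC3290 from West Africa, and YPS128 from a North American oak. Each was sampled after 10 generations in rich medium with G418, which keeps the plasmid, and 0.7 M NaCl, and at generation 0, before growth in salt, with 3 replicates per strain and generation. Every strain also kept its own chromosomal genes. The number of ENA copies per haploid genome is described as lower in NCYC3290 and YPS128 than in BY4743 and BC187. BY4743 is described as carrying more plasmid copies per haploid genome than the wild strains, so in comparisons with BY4743 copy number and strain cannot be told apart. Growth without NaCl was not analysed here, so a cost of a gene in salt cannot be told apart from a cost in any medium.

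Budding yeast keeps cytosolic sodium low and potassium high with a set of pumps, carriers and channels, some of which depend on the proton gradient. Pma1, the plasma membrane proton ATPase, is essential and builds that gradient, and Nha1 and the endosomal exchanger Nhx1 use proton gradients to move sodium and potassium. The Ena proteins pump sodium out by hydrolysing ATP, Trk1 and Trk2 take up potassium, Tok1 is an outward potassium channel, and Kha1 is a potassium proton antiporter of the Golgi.

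PMA1 and the ENA genes encode P-type ATPases, which pass through a phosphorylated state at a conserved aspartate. The coding stretch around that site is shown because the pumps of the 2 ions can be set side by side there, and because it shows how alike the copies of a pump are. Each stretch has 57 coding bases of the S288C assembly R64 (RefSeq), with the 21 bases that start at the aspartate codon in capitals.
PMA1: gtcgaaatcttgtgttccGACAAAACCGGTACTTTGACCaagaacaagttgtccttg
PMA2: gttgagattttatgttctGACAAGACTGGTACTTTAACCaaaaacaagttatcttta
ENA1: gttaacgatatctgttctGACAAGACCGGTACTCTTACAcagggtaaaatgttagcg
ENA2: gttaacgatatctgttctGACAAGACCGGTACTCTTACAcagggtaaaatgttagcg
ENA5: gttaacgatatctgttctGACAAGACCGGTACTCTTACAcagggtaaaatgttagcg
They lie at chrVII:481497-481553 on the minus strand (PMA1), chrXVI:484043-484099 on the plus strand (PMA2, a minor proton pump and the paralog of PMA1), and chrIV:537325-537381, chrIV:533440-533496 and chrIV:529555-529611 on the minus strand (ENA1, ENA2 and ENA5). PMA1 and PMA2 differed at 3 of the 21 bases in capitals and PMA1 and ENA1 at 4, while the whole stretch was the same in the 3 ENA genes. Over the aligned bases of the coding sequences, with gaps left out, PMA1 was 82.19% identical to PMA2 and 56.34% to ENA1. For PMA1 and ENA1 these were 2728 bases, where the ENA1 coding sequence has 3276. The 3 ENA genes were 97.65% to 98.96% identical to each other and stand in a row on chromosome IV with 609 bp between neighbours, at 527422 to 530697 (ENA5), 531307 to 534582 (ENA2) and 535192 to 538467 (ENA1).

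The genes with reads were spread over 4 chromosomes of R64. PMA1 (YGL008C) lies on chromosome VII from 479910 to 482666, NHA1 (YLR138W) on chromosome XII from 418437 to 421394, NHX1 (YDR456W) on chromosome IV from 1367485 to 1369386, and KHA1 (YJL094C) on chromosome X from 251821 to 254442. These are the annotated protein-coding genes in the reference genome, and the table itself has no coordinates. The nearest neighbour of KHA1 on one side is TOK1 at a distance of 294 bp. TRK1 (YJL129C) lies on chromosome X from 173599 to 177306.

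Depth differed between strains after growth, and a few barcodes took most reads in NCYC3290 and YPS128. Reads were therefore scaled to the total over barcodes that never exceeded 50000 reads in a sample, and values per 1000000 of this total are called normalised reads. The total was 8407149 to 23477556 at generation 0. At generation 10 it was 11962164 to 18609776 in BY4743 and BC187, 1679115 to 5010411 in YPS128 and 501261 to 1868859 in NCYC3290. A count of 3 reads, the limit that 0 reads allow, corresponded to 0.161 to 0.251 normalised reads in the generation 10 libraries of BY4743 and BC187, 0.599 to 1.79 in YPS128 and 1.61 to 5.98 in NCYC3290. Barcodes were amplified without molecular identifiers, so such limits cover counting error only.

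The first question was which transporter plasmids gained or lost abundance in salt in each strain. The false discovery rate (FDR) is the p-value of edgeR's quasi-likelihood test, adjusted over all barcodes tested in the strain. No transporter barcode rose at an FDR under 0.05, and 6 of the 15 tests of a gene in a strain were falls. In BY4743, 2 of the 4 genes tested fell (PMA1 and NHA1), where 19.5% of all 4186 barcodes tested fell and 18.2% rose (37.7% in either direction). In BC187, 3 of 3 fell (PMA1, NHA1 and KHA1), where 38.1% of 4166 barcodes fell and 28.5% rose (66.7% in either direction). NHX1 was too sparse to be tested in BC187. In NCYC3290, 0 of 4 passed in either direction, where 26.1% of 4171 barcodes fell and 1.89% rose (28% in either direction). Replicates varied most there, with a biological coefficient of variation of 0.855, against 0.539 in YPS128, 0.126 in BY4743 and 0.110 in BC187. In YPS128, 1 of 4 fell (PMA1), where 8.47% of 4157 barcodes fell and 4.11% rose (12.6% in either direction). PMA1 fell in 3 strains, a count that 9.64% of the 4140 barcodes tested in all strains reached. None of the 4 genes fell in all 4 strains, as 1.5% of barcodes did.

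**Figure D1:**
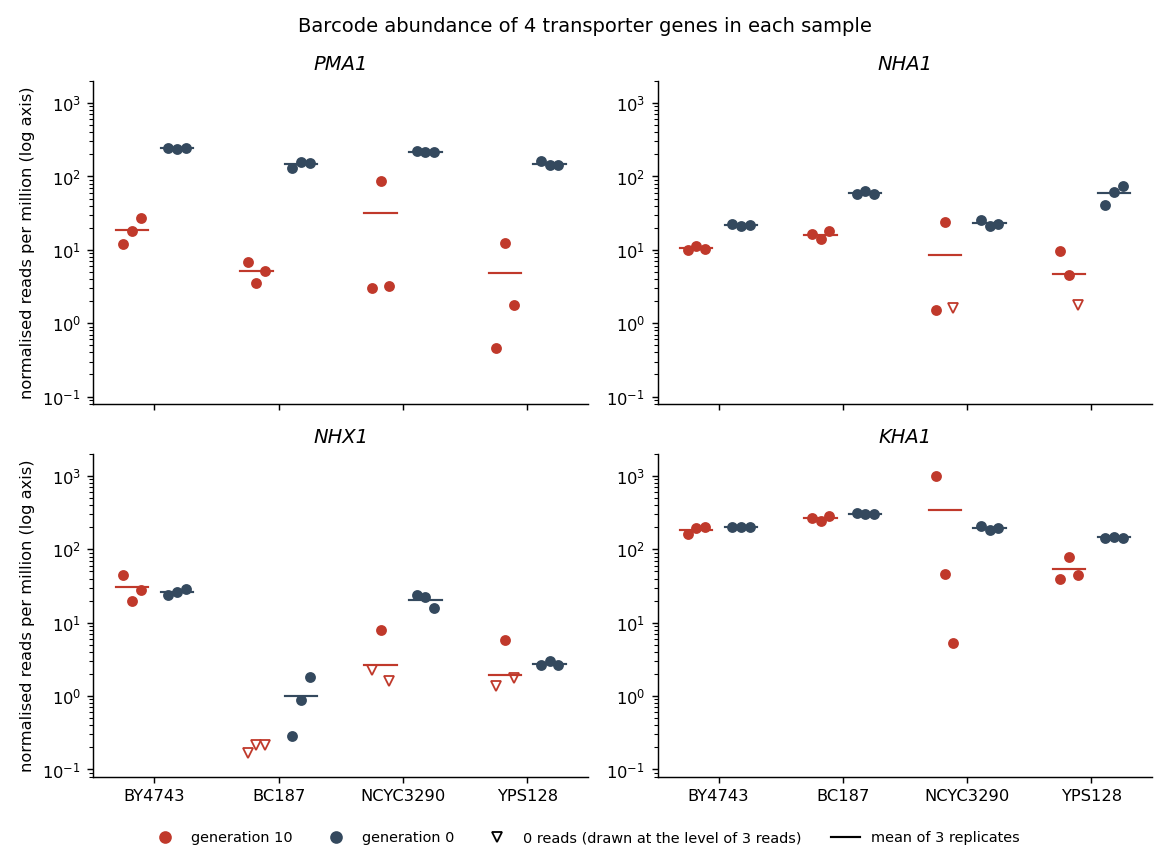
Normalised reads (log axis) of PMA1, NHA1, NHX1 and KHA1 in each of the 24 samples, with generation 10 in red left of generation 0 in dark blue for each strain; points are replicates, lines are means of 3 replicates, and open triangles are samples with 0 reads drawn at the level of 3 reads. PMA1 lay lower in all 3 generation 10 samples than in all 3 generation 0 samples of every strain, and KHA1 stayed near its starting level in BY4743 and BC187 while its 3 NCYC3290 samples ran from 5.35 to 991.

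At generation 0 the 4 genes held different places in the pools. PMA1 began at a mean of 242 normalised reads in the BY4743 pool, 217 in NCYC3290, 146 in BC187 and 149 in YPS128, which put it between the 32.3 and 54.8 percentiles of the barcodes with reads. KHA1 was of like abundance, with means of 203, 308, 195 and 146 in BY4743, BC187, NCYC3290 and YPS128. NHA1 was rarer, at 21.9 in BY4743, 22.9 in NCYC3290, 59.5 in BC187 and 58.7 in YPS128 (5.55 to 16.1 percentiles). NHX1 was the rarest of the 4 in BC187, NCYC3290 and YPS128, while NHA1 was rarer in BY4743. It had 26.3 ± 2.64 normalised reads in BY4743 and 20.6 ± 4.17 in NCYC3290, but 0.996 ± 0.762 in BC187 and 2.75 ± 0.187 in YPS128 (SD, n = 3 each). TRK1, which encodes the high-affinity potassium transporter, was at 0 reads in all 24 libraries, and its absence before growth leaves no fold change to give.

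PMA1, the gene of the proton pump, had the largest called falls among these transporters. In BY4743 it had 12.1, 17.8 and 26.8 normalised reads at generation 10, against 244, 240.4 and 241 at generation 0. All 3 generation 10 values lay far below the generation 0 values, and the log2 fold change was -3.66 (SE 0.27, FDR 5.8e-05). In BC187 it had 6.90, 3.53 and 5.15 normalised reads at generation 10, against 131, 156 and 151 at generation 0, a log2 fold change of -4.80 (SE 0.23, FDR 4.5e-07). Only 0.932% of the barcodes tested in BY4743 and 2.33% of those tested in BC187 had a lower log2 fold change.

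PMA1 was lower after growth in the 2 other strains too, with more spread between replicates. In YPS128 it had 1, 62 and 3 reads at generation 10, or 0.458, 12.4 and 1.79 normalised reads, against 161, 142 and 145 normalised reads at generation 0. The log2 fold change was -4.85 (SE 1.11, FDR 0.0315), with 0.602% of barcodes lower. This call did not pass in 4 of the 6 fits that left out 1 library: the FDR was 0.0993 to 0.133 without each generation 0 library and 0.0596 without generation 10 replicate 3. In NCYC3290 PMA1 had 4, 44 and 6 reads at generation 10, or 3.005, 87.8 and 3.21 normalised reads, against 222, 215 and 213 normalised reads at generation 0. The generation 10 values were all below the generation 0 values, but replicate 2, the shallowest library, lay far above the other two. The log2 fold change of -2.84 (SE 1.38) did not pass (FDR 0.172), and without generation 10 replicate 2 it was -6.12 (FDR 0.0024). The median barcode of NCYC3290 had a log2 fold change of -1.58, and 28.9% of barcodes lay below PMA1.

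NHA1, which encodes the sodium and potassium proton antiporter of the plasma membrane, fell in the laboratory and vineyard strains by smaller amounts. In BY4743 it had 10.0, 11.5 and 10.2 normalised reads at generation 10, against 22.7, 20.8 and 22.1 at generation 0. The groups did not overlap and the log2 fold change was -1.05 (SE 0.22, FDR 0.0087), although the FDR was 0.0512 to 0.0596 when any of the 3 generation 0 libraries was left out. In BC187 it had 16.3, 13.9 and 18.1 normalised reads at generation 10, against 57.2, 62.8 and 58.5 at generation 0. The log2 fold change there was -1.88 (SE 0.15, FDR 7.7e-06), and it passed in 6 of 6 fits without 1 library.

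In YPS128 NHA1 had 21, 23 and 0 reads at generation 10, or 9.62, 4.59 and 0 normalised reads, against 41.2, 61.7 and 73.3 normalised reads at generation 0. All generation 10 values were lower and the log2 fold change was -3.61, yet the SE of 1.24 left the FDR at 0.0845. It was 0.0428 without generation 10 replicate 2 and 0.0442 without generation 10 replicate 3. In NCYC3290 NHA1 had 2, 12 and 0 reads at generation 10, or 1.502, 23.9 and 0 normalised reads, against 25.3, 21.2 and 22.3 normalised reads at generation 0. The groups overlapped through replicate 2, and the log2 fold change of -1.67 (SE 1.37, FDR 0.408) was close to the median barcode of that strain. Without replicate 2 it was -5.12 (FDR 0.0107).

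NHX1, which encodes the sodium and potassium proton exchanger of late endosomes, passed the test of a difference between strains over all 24 samples. In BY4743 it had 45.2, 19.7 and 27.9 normalised reads at generation 10, against 23.8, 26.0 and 29.1 at generation 0. The groups overlapped, and the log2 fold change was 0.23 (SE 0.31, FDR 0.585) and turned to -0.14 without generation 10 replicate 1. In BC187 it had 0 reads in all 3 generation 10 libraries, against 3, 19 and 37 reads at generation 0. Against a limit of 3 reads in each generation 10 library it was at least 4.98-fold lower at generation 10, and at least 2.96-fold lower without generation 0 replicate 3. It failed the filter on low counts in that strain. With no filter the FDR in BC187 was 0.0056.

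In NCYC3290 NHX1 had 0, 4 and 0 reads at generation 10, or a mean of 2.66 ± 4.61 normalised reads, against 23.7, 22.2 and 15.9 normalised reads at generation 0. All generation 10 values were lower, but the log2 fold change of -3.62 (SE 1.42) did not pass (FDR 0.102), and it passed (FDR 0.0038) without generation 10 replicate 2, which held all 4 reads. In YPS128 it had 0, 29 and 0 reads at generation 10, against 22, 35 and 47 reads at generation 0. Replicate 2, at 5.79 normalised reads, was above all generation 0 values of 2.62 to 2.97, and the other two held no read. The log2 fold change of -0.37 (SE 1.41, FDR 0.870) therefore averaged 2 opposite outcomes.

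KHA1, the gene of the Golgi potassium proton antiporter, changed little in the 2 strains with tight replicates. In BY4743 it had 163, 195 and 199.6 normalised reads at generation 10, against 203, 202 and 205 at generation 0. The log2 fold change was -0.13 (SE 0.092, FDR 0.309). In BC187 it had 272, 242 and 281 normalised reads at generation 10, against 317, 300.1 and 307 at generation 0. That was a fall of small size (log2 fold change -0.22, SE 0.066, FDR 0.0191), and 39.7% of the barcodes of BC187 lay lower. Its FDR was 0.0521 without generation 0 replicate 1.

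KHA1 in YPS128 had 39.8, 78.8 and 45.3 normalised reads at generation 10, against 144.5, 148 and 144.5 at generation 0. The groups did not overlap, but the log2 fold change of -1.41 (SE 0.50) did not pass (FDR 0.0905); it was -1.78 (FDR 0.0050) without generation 10 replicate 2. In NCYC3290 KHA1 had 1319, 23 and 10 reads at generation 10, or 991, 45.9 and 5.35 normalised reads, against 205, 186 and 194 normalised reads at generation 0. One library lay above all generation 0 values and the other two lay below. The log2 fold change was 0.83 (SE 1.49, FDR 0.716), and without generation 10 replicate 1 it was -2.997.

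**Figure D2:**
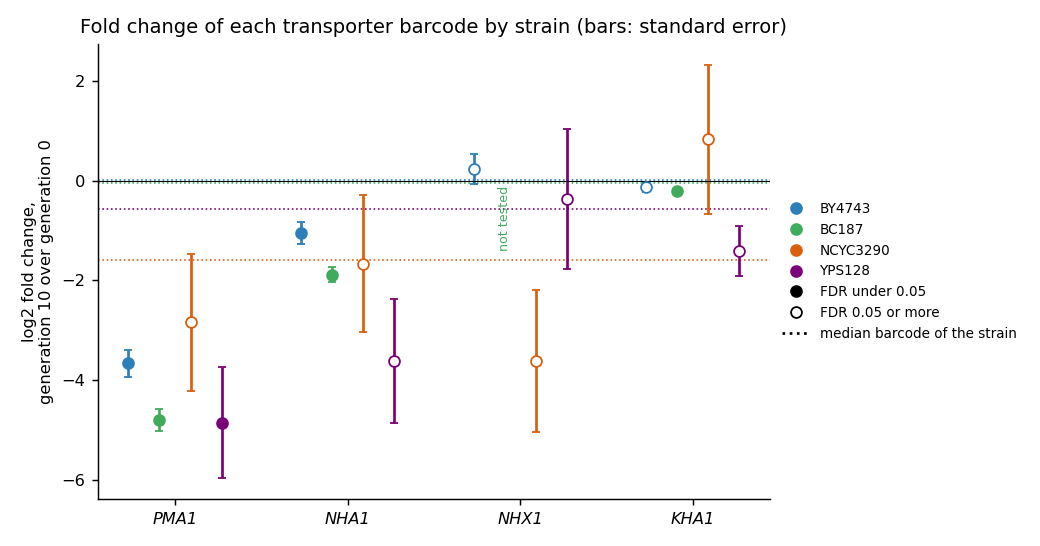
Log2 fold change of generation 10 over generation 0 for each transporter barcode and strain, from the fit of each strain; bars are standard errors, filled points have an FDR under 0.05, and dotted lines mark the median barcode of each strain. PMA1 ranged from -4.85 to -2.84, KHA1 lay near 0 in BY4743 and BC187, and the bars of NCYC3290 were the widest for PMA1, NHA1, NHX1 and KHA1.

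Over all 15 tests of a gene in a strain, the log2 fold change was below 0 in 13. The median barcode was itself well below 0 in NCYC3290 (-1.58) and YPS128 (-0.56), but close to 0 in BC187 (-0.05) and BY4743 (0.01). For NCYC3290 and YPS128 the sign alone therefore does not set these genes apart from other barcodes. The 3 generation 10 values lay below the 3 generation 0 values in 11 of the 15 and above them in none, and the groups overlapped in the other 4. By strain these were 3 of 4 genes in BY4743, where 28.7% of all barcodes did so, 3 of 3 in BC187 (40.8%), 2 of 4 in NCYC3290 (60%) and 3 of 4 in YPS128 (45.1%). The opposite order, with generation 10 above, was held by 27.4%, 31.3%, 3.45% and 9.67% of all barcodes in these strains.

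Replicate fitness scores, the log2 ratio of 1 generation 10 sample to the mean of generation 0 with 1 normalised read added to each, were set against the median barcode of the same sample. For PMA1 the 3 replicates of BY4743 scored -4.20, -3.70 and -3.15, those of BC187 -4.18, -4.96 and -4.52, those of NCYC3290 -2.12, 1.12 and -3.67, and those of YPS128 -5.89, -3.06 and -4.90. PMA1 was thus below the median barcode in 11 of 12 samples, the exception being NCYC3290 replicate 2. For NHA1 they were near -1 in BY4743 (-1.06 to -0.89), -1.96 to -1.61 in BC187 and -5.05 to -1.69 in YPS128. In NCYC3290 they were 0.39, 2.47 and -2.56 for NHA1 and 5.98, 0.35 and -2.93 for KHA1, so the same strain gave scores on both sides of the median. The NHA1 scores of -5.05 (YPS128 replicate 3) and -2.56 (NCYC3290 replicate 3) come from 0 reads. They are set by the added normalised read and are no measured size. KHA1 scored -0.30 to -0.045 in BY4743 and -0.29 to -0.071 in BC187.

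**Figure D3:**
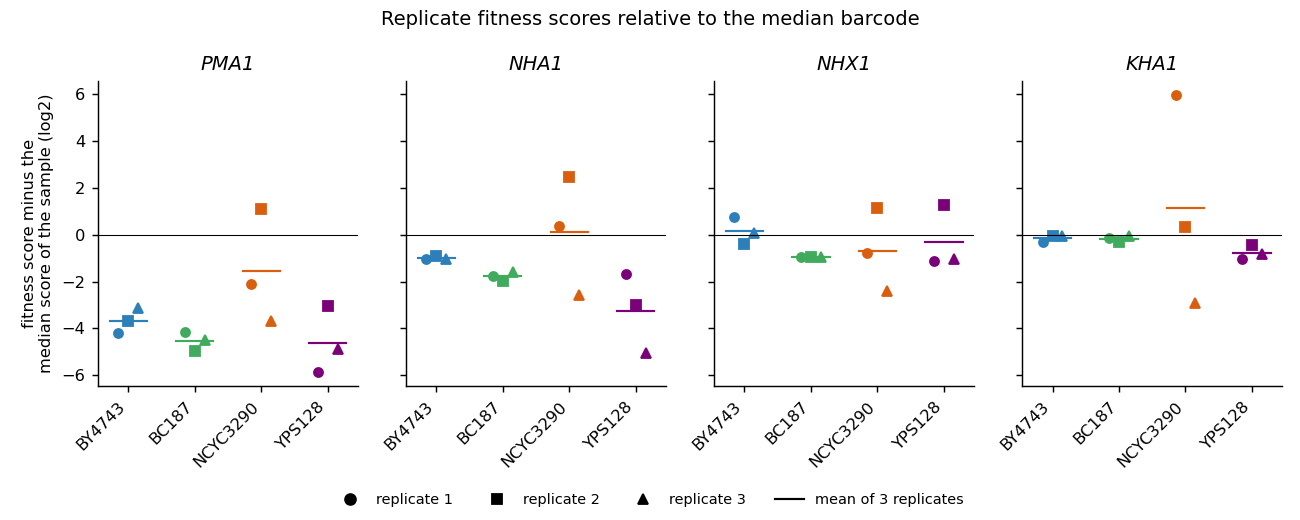
Fitness score of each generation 10 replicate minus the median score of its sample (log2), by strain, for the 4 transporter genes; symbols mark replicates 1 to 3 and lines their means. Scores of PMA1 were below 0 in all samples but NCYC3290 replicate 2, and the 3 replicates of NCYC3290 lay on both sides of 0 for PMA1, NHA1, NHX1 and KHA1. Samples with 0 reads are not marked. NHX1 had 0 reads in all 3 BC187 samples, so its close scores there are set by the added normalised read and are no measured size. In NCYC3290 and YPS128 the same holds for NHA1 in replicate 3 and for NHX1 in replicates 1 and 3, which had 0 reads.

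The next question was whether the effect of a transporter differed between strains. In 1 fit of all 24 samples, the strain-by-generation test passed for NHX1 (FDR 0.0221) and not for NHA1 (0.369), KHA1 (0.490) or PMA1 (0.502). That is 1 of 4 genes, where 41.3% of the 4215 barcodes tested passed. Of the 24 comparisons of a gene between a pair of strains, 2 passed, against 20.1% of comparisons over all barcodes. Both were of NHX1: BC187 differed from BY4743 (FDR 0.0192; 3.37% of barcodes passed in this pair) and YPS128 from BC187 (FDR 0.0342; 7.97%). In the pairs where none of the 4 genes passed, 8.09% (YPS128 and BY4743), 28.8% (NCYC3290 and YPS128), 35.1% (NCYC3290 and BC187) and 37.4% (NCYC3290 and BY4743) of barcodes did. No size is given for these, since NHX1 had no reads in BC187 at generation 10. The second comparison rests on YPS128 replicate 2 with its 29 reads, and its FDR was 0.9999 without that library. The first had an FDR of 0.0502 without BC187 generation 0 replicate 3 and 0.0500 without BC187 generation 10 replicate 1. With counts normalised, imputed and rounded here by the rules the study describes, neither passed (0.314 and 0.461), nor did the strain-by-generation test (0.148). NHX1 had 0.289, 0.898 and 1.80 normalised reads at generation 0 in BC187, so rounding to whole numbers leaves that setting little to test. The second comparison also did not pass with all reads (0.153) or voom (0.359).

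A fit of all strains gives them 1 common spread, although the replicates of NCYC3290 and YPS128 varied far more. A fit of only the 12 samples of BC187 and BY4743, chosen after seeing the data, found a larger fall in BC187 for PMA1 by -1.13 (SE 0.35, FDR 0.0192) and for NHA1 by -0.83 (SE 0.25, FDR 0.0161), and a difference for NHX1 (FDR 0.0015). KHA1 did not differ detectably (-0.09, SE 0.12, FDR 0.563). So 3 of the 4 genes passed, where 44.7% of all barcodes did. In the fit of all samples the same differences for PMA1 and NHA1 had an FDR of 0.633 and 0.752. A fit of NCYC3290 and YPS128 alone found no difference for the 4 genes (FDR 0.391 to 0.565), where 12.1% of all barcodes passed.

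The barcode with the course most like each gene was sought over the 12 replicate scores, among 4137 other barcodes tested in all 4 strains, by the root-mean-square distance. ARF1, the gene of a GTPase of Golgi vesicle traffic, was nearest to PMA1 at a distance of 0.762, where the median barcode lay at 4.16. Without the median barcode subtracted, the mean scores of PMA1 were -3.68, -4.60, -4.25 and -5.31 in BY4743, BC187, NCYC3290 and YPS128. Those of ARF1 were -4.15, -5.01, -4.56 and -5.19. On this scale the median barcode itself scored -3.64, -2.41 and -2.02 in the 3 NCYC3290 replicates, so these values include the shift of the whole strain. NUP145, a nucleoporin gene, was nearest to NHA1 (0.847, median 2.57), and YVH1, a phosphatase gene, to KHA1 (0.290, median 2.23). The nearest barcode lies below the median distance by construction, so these distances are no test of likeness. NHX1 was not tested in all strains and was left out of this search.

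Genes around these transporters were followed from 2 lists. The first holds 12 other carriers of monovalent cations and small membrane proteins, of which 8 had a row, 7 had reads and 6 were tested. Of the 6, 2 fell and 2 rose in BY4743, 2 fell and 2 rose in BC187, 2 fell and 1 rose in NCYC3290, and 0 fell and 1 rose in YPS128. Over all barcodes, BY4743 had 19.5% falling and 18.2% rising, BC187 38.1% falling and 28.5% rising, NCYC3290 26.1% falling and 1.89% rising, and YPS128 8.47% falling and 4.11% rising. The median log2 fold changes of the 6 were 0.36, 0.01, -1.19 and 0.57, against 0.01, -0.05, -1.58 and -0.56 over all barcodes. The counts in the last 2 strains turned on the scaling: with all reads as library size 4 fell and 0 rose in each, and with TMM factors 0 fell and 1 rose in NCYC3290 and 0 fell and 2 rose in YPS128. PMP2, which encodes a small proteolipid bound to Pma1, rose by 0.64 in BY4743 (FDR 0.0066) and 0.96 in BC187 (FDR 0.0019). It had 2.30 in NCYC3290 and 1.43 in YPS128 with an FDR of 0.331 and 0.456.

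QDR2, a plasma membrane transporter of drugs and cations, had opposite courses in different strains (strain-by-generation FDR 5.9e-08). It had 90.9 ± 22.3 normalised reads at generation 10 and 181 ± 8.30 at generation 0 in BY4743 (log2 fold change -0.995, FDR 0.0040), and 3318 ± 730.1 at generation 10 and 205 ± 39.8 at generation 0 in NCYC3290 (4.02, FDR 0.0063). In YPS128 it rose by 1.12 (FDR 0.0230), but this turned to -2.04 when libraries were scaled to all reads, and the NCYC3290 value to 0.22 (FDR 0.710). VNX1, the gene of a vacuolar cation proton antiporter, fell by 2.56 in BY4743 (FDR 0.0026). In NCYC3290 it fell too (FDR 0.0067), to 1 read summed over the 3 generation 10 libraries, against 520 reads at generation 0. That is 2.71% of the starting share, with an exact 95% interval for counting error of 0.0685% to 15.2%. KCH1 and PRM6 encode potassium influx proteins of the pheromone response. KCH1 fell by 4.86 in NCYC3290 (FDR 0.0074) and by 0.37 in BC187 (FDR 0.0147), and PRM6 rose by 0.56 in BY4743 and 0.34 in BC187. With TMM scaling the NCYC3290 falls of VNX1 and KCH1 had an FDR of 0.0707 and 0.0501. YLH47, of mitochondrial potassium proton exchange, fell by 0.97 in BC187 (FDR 0.00029).

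The second list holds 21 regulators of the transporters, of which 16 had a row and all 16 were tested. There were 4 falls and 6 rises in BY4743, 8 falls and 7 rises in BC187, 4 falls and 3 rises in NCYC3290, and 2 falls and 4 rises in YPS128, to be read against the shares of all barcodes just given. With all reads as library size there were 11 falls and 3 rises in NCYC3290 and 10 falls and 4 rises in YPS128, and with TMM factors 2 falls and 3 rises, and 2 falls and 6 rises. Their median log2 fold changes were -0.03, -0.19, -1.29 and -0.59, close to those of all barcodes. Single regulators stood far apart from these medians. The kinases Hal5 and Sat4 stabilise the Trk potassium transporters at the membrane, and Sis2 inhibits the phosphatase Ppz1, and the barcodes of HAL5, SAT4 and SIS2 rose in all 4 strains. HAL5 rose by 1.09, 4.55, 12.88 and 12.98 in BY4743, BC187, NCYC3290 and YPS128.

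The phosphatases Ppz1 and Ppz2, which act against potassium uptake through Trk1 and Trk2, went the other way. PPZ1 fell in 3 strains, with log2 fold changes of -3.34 in BY4743 (FDR 0.0206), -5.58 in BC187 (FDR 3.4e-07) and -4.19 in YPS128 (FDR 0.0322). In NCYC3290 it had -1.88 (FDR 0.206), with 44.6% of barcodes lower, and 0.12 with TMM scaling. PPZ2 had 14.4 ± 3.64 normalised reads at generation 10 and 111 ± 5.29 at generation 0 in BY4743, and 0.425 ± 0.196 at generation 10 and 36.3 ± 2.84 at generation 0 in BC187 (log2 fold changes -2.94 and -6.41, FDR 4.7e-05 and 3.7e-07). In NCYC3290 it fell (FDR 0.0077), with 3 reads over the generation 10 libraries, against 6073 at generation 0, or 0.696% of the starting share (exact 95% interval 0.144% to 2.04%). The YPS128 value of PPZ2 was -2.85 and did not pass (FDR 0.191). PTK2, the gene of a kinase that activates Pma1, fell by 4.12 in BY4743 (FDR 0.0075). In BC187 it fell to 1 read at generation 10, against 179 at generation 0 (FDR 0.00035; 0.639% of the starting share, interval 0.0161% to 3.61%). PTK2 did not pass in NCYC3290 (-3.50, FDR 0.0603) or in YPS128 (-0.899, FDR 0.658), where the groups overlapped.

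Of the calcineurin branch, which switches on ENA1 transcription, the factor gene CRZ1 rose by 1.26 in BY4743, 4.75 in BC187 and 6.01 in YPS128, and had 1.06 in NCYC3290 (FDR 0.534). With all reads as library size CRZ1 had 2.82 in YPS128 (FDR 0.0004) and -2.68 in NCYC3290 (FDR 0.0797). CMP2, the gene of a catalytic subunit, fell in BY4743, BC187 and YPS128, with log2 fold changes of -0.77, -1.91 and -3.18 (FDR 8.2e-05, 1.9e-06 and 0.0143). CNB1, the gene of the regulatory subunit, rose by 0.36 in BY4743 (FDR 0.0027). It had 0.10 in BC187, 0.88 in NCYC3290 and 0.88 in YPS128 (FDR 0.425, 0.453 and 0.328). With all reads as library size the NCYC3290 and YPS128 values of CNB1 turned to -2.64 and -2.31. Among other genes tied to ENA1 transcription, TUP1, SKO1 and RIM101 passed in BC187 and NCYC3290 only. TUP1, a corepressor gene, had 1 read over the generation 10 libraries of BC187, against 260 at generation 0 (FDR 2.3e-05; 0.44% of the starting share, interval 0.0111% to 2.47%). In NCYC3290 it had 0 reads at generation 10, against 840 at generation 0, and was at least 4.90-fold lower (FDR 0.0063), or at least 8.33-fold lower without generation 10 replicate 2, the shallowest library. In BY4743 it had 11.1 ± 4.22 normalised reads at generation 10 and 12.04 ± 1.30 at generation 0 (FDR 0.835). SKO1 fell in BC187 (-0.54) and NCYC3290 (-4.08). RIM101 fell by 3.03 in NCYC3290 (FDR 0.0456), and HAL1, a halotolerance gene, rose by 0.60 in BY4743 and 0.62 in BC187. RIM101 rose by 0.20 in BC187 (FDR 0.0316). Other scalings ended 3 of these calls: with TMM the NCYC3290 values of SKO1 and RIM101 had an FDR of 0.0870 and 0.416, and with all reads RIM101 in BC187 had 0.0856.

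**Figure D4:**
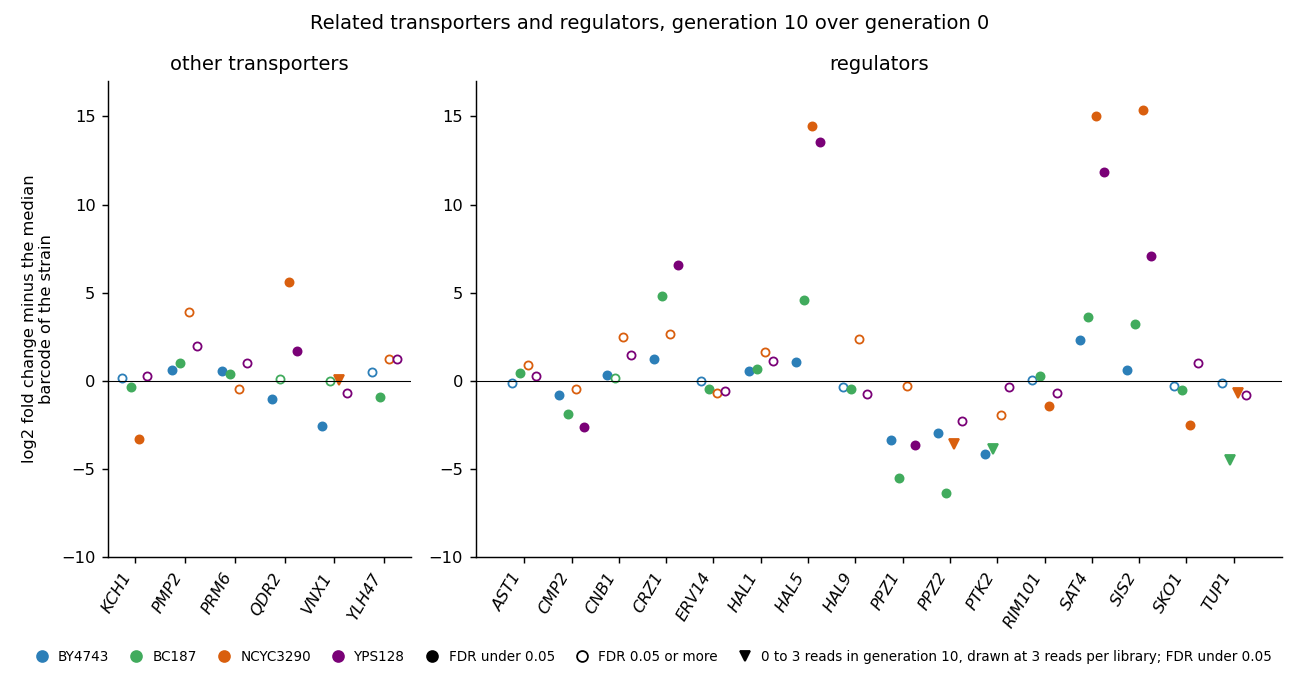
Log2 fold change minus the median barcode of the strain for the 6 other transporters and 16 regulators tested, by strain; filled points have an FDR under 0.05, and triangles are genes with 0 to 3 reads in generation 10, drawn at the level of 3 reads per library. HAL5, SAT4 and SIS2 lay above 0 and PPZ1, PPZ2 and PTK2 below 0 in all strains under this scaling.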

How the data were processed

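Barcode abundance was measured in 24 samples (4 strains, generations 10 and 0, 3 replicates each). The authors isolated plasmids, amplified barcodes by PCR with indexed primers and sequenced them as single-end reads. The table as deposited gives raw counts of reads for each barcode, whole numbers without scaling or imputed values. The tool that assigned reads to barcodes is not given in the sources used here. Groups and replicates came from the sample titles, and symbols and positions from RefSeq R64 (4811 of 4817 names matched). A row with no reads was left out of tests (584 of 4871 rows).

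Library size was the total without 25 barcodes above 50000 reads in any sample, as in the study. Generation 10 was tested against generation 0 within each strain by the quasi-likelihood test of edgeR 4.0.16 in R 4.3.3 after filtering low barcodes (filterByExpr, min.count 10). The FDR was taken by Benjamini-Hochberg over all barcodes tested, with a threshold of 0.05, and the SE is the log2 fold change over the square root of F. A fit of the 24 samples tested strain-by-generation terms and 6 pairs of strains. Alternatives were TMM factors, all reads as library size, DESeq2 1.42.0, voom of limma 3.58.1, no filter, normalised and rounded values, a replicate block and leaving out each library. The rounded values were counts normalised, imputed and rounded here by the rules the study describes. The study's own processed values were not used. Intervals of counts were exact (scipy 1.17.1). Scripts were tested on simulated data.

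The genes and lists were chosen with earlier results of these data known. All rows of the listed genes are given. Genes of the 2 related lists are named where they passed in at least 2 strains or were the largest change of their list in a strain. CNB1, which passed in BY4743 alone, is named as well, as the other calcineurin subunit tested.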

Additional observations from a re-analysis of the deposited data

Results flagged for a closer look

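Differences between strains in the effect of the same plasmid were the reason to look again at 6 results. NHX1 passed the strain-by-generation test over all 24 samples (FDR 0.0221), as 41.3% of barcodes did. Of its pairs of strains 2 passed: BC187 against BY4743 (FDR 0.0192, with 3.37% of barcodes passing) and YPS128 against BC187 (FDR 0.0342, with 7.97%). These calls did not hold under all alternatives: with the normalised and rounded values the 3 had an FDR of 0.148, 0.314 and 0.461, and the last was also lost with all reads (0.153), with voom (0.359) and in 8 of 24 fits without 1 library. In BC187, NHX1 had 0 reads in each generation 10 library and 59 reads in all at generation 0, so its start was near the limit of detection. Rounding to whole numbers leaves little of its generation 0 values there, which were 0.289, 0.898 and 1.80 normalised reads. In the fit of BC187 and BY4743 alone, chosen after seeing the data, NHX1 (FDR 0.0015), NHA1 (FDR 0.0161) and PMA1 (FDR 0.0192) differed between these strains. In that fit 44.7% of all barcodes passed. For the same pair in the fit of all samples NHA1 and PMA1 had an FDR of 0.752 and 0.633. BY4743 also carries more plasmid copies, so copy number and strain cannot be told apart in this comparison.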

How the results depend on the processing

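PMA1 kept its fall in BY4743 and BC187 when any 1 library was left out (log2 fold changes -4.01 to -3.41 and -5.07 to -4.59) and NHA1 in BC187 (-1.97 to -1.79). In the fit of all 24 samples PMA1 in BY4743 had an FDR of 0.0565 and NHA1 in BC187 of 0.276. Scaling moved the median barcode of NCYC3290 to 0.48 with TMM factors and -5.37 with all reads, against -1.58, and that of YPS128 to 0.06 and -3.65, against -0.56, so signs in these strains are relative to the scaling. The median moved by under 0.1 in BY4743 and BC187.

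Genes called in BY4743 numbered 2, but 1 with the replicate block and 0 in the joint fit. In BC187 they numbered 3, with 4 without the filter and 2 in the joint fit, where NHA1 and KHA1 (FDR 1) were lost and NHX1 (FDR 0.0185) was gained. In NCYC3290 they numbered 0, but 3 with all reads, 2 with the block, 2 in the joint fit, 1 with DESeq2 and 1 with voom. In YPS128 they numbered 1, but 3 with all reads and 2 each with DESeq2, voom and the joint fit. Genes differing between strains numbered 1, but 3 with all reads, 4 with DESeq2, 2 with voom, and 0 with the block or the rounded values. Calls over pairs numbered 2, but 10 with all reads, 10 with DESeq2, and 0 with the block or the rounded values. Leaving out 1 library gave 1 to 2 genes in BY4743, 3 to 4 in BC187, 0 to 3 in NCYC3290, 0 to 4 in YPS128, 1 to 2 differing between strains and 0 to 6 pairs.

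Signs turned for NHX1 in BY4743 (-0.14 to 0.47 without 1 library), in YPS128 (0.090 with TMM, 0.21 and 0.16 without generation 10 replicate 1 or 3, and -7.53 without replicate 2), for YPS128 minus BY4743 (0.00036 with TMM, -8.34 to 0.048 without 1 library) and for NCYC3290 minus YPS128 (-10.81 to 4.17 without 1 library). In NCYC3290 they turned for NHA1 (0.18 with TMM, 0.76 with DESeq2) and KHA1 (-3.58 with all reads, -1.79 with the block, -1.59 with voom, -2.997 to 1.41 without 1 library). The values beyond -7 are fitted against 0 reads and are no measured size. The cause was not tested. Samples with the same replicate number had correlations of -0.417 to 0.117, so the numbers were not taken as pairs; under the block NHA1 in BY4743 had an FDR of 0.0555, and NHX1 had 0.0888 over all strains, 0.0605 for BC187 against BY4743 and 0.216 for YPS128 against BC187.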
